A study of Homo sapiens with 4 samples.

Results

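The 10 genes described here carry the recurrent drivers of uveal melanoma, the melanoma of the pigmented layer of the eye, or mark its risk of spreading, and they were looked up in the genome-wide peak lists of an A3B ChIP-seq experiment. They were GNAQ, GNA11, PLCB4, CYSLTR2, BAP1, SF3B1, SRSF2, EIF1AX, PRAME and PTP4A3, chosen by name for their role in the disease, out of 20033 protein-coding genes on chromosomes 1 to 22, X and Y. A peak was counted at a gene when it overlapped the GENCODE gene body, extended by 3 kb on both sides, by at least 1 bp. By that rule 24 of the 55486 peaks of OMM2.3 and 46 of the 135327 peaks of 92.1 on these chromosomes lay at the 10 genes.

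A3B (APOBEC3B) is a nuclear cytidine deaminase that turns cytosine into uracil in single-stranded DNA, preferring a cytosine that follows a thymine. The series compared chromatin pulled down with an anti-A3B antibody and with normal rabbit IgG in the human uveal melanoma lines OMM2.3 and 92.1, asking where on the genome A3B sits. The 4 libraries were 1 A3B and 1 IgG library in each line. All came from cells grown in RPMI1640 with fetal bovine serum, crosslinked with formaldehyde and sonicated, and the labels name no treatment and no A3B-depleted control. OMM2.3 was derived from a liver metastasis and 92.1 from a primary tumour of the eye, so each is a single model of its stage. Both lines are known to carry an activating GNAQ mutation. With 1 library in each group there was no replicate, and no test between the lines was made. Peak lists hold no expression values, so the identity of the lines was not checked against markers.

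Most uveal melanomas start with an activating mutation of the Gq pathway. In that pathway the leukotriene receptor CYSLTR2 switches on the G protein alpha subunits encoded by GNAQ and GNA11, and these activate phospholipase C beta, one form of which is PLCB4, which makes the second messengers that drive protein kinase C. A later mutation usually strikes BAP1, a nuclear deubiquitinase and tumour suppressor, the splicing factors SF3B1 or SRSF2, or EIF1AX, which helps the ribosome choose a start codon. PRAME, a cancer-testis antigen, and PTP4A3, a phosphatase also called PRL-3, are not classical drivers, and high expression of either has been linked to metastasis.

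The sequences under 2 of the peaks the results turn on are shown first. Each is a peak's summit with 100 bp on each side, on the plus strand of GRCh38, written 5′ to 3′, with the trinucleotide TCA, in which A3B prefers to deaminate the cytosine, and its reverse complement TGA in capitals. TCA or TGA occurred in 99.802% of all such summit windows of OMM2.3 and in 99.863% of those of 92.1, so its presence does not set these windows apart. The GNAQ window chr9:77790268-77790468, in intron 5, is the only place at the 10 genes where a peak of OMM2.3 and a peak of 92.1 overlapped.
GNAQ, both lines: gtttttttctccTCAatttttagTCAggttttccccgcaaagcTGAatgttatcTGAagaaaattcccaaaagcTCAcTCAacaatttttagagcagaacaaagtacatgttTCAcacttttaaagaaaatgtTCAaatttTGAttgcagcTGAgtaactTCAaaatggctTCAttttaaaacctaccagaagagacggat
The window chr13:48678619-48678819, in intron 1 of CYSLTR2, holds the stronger peak of a gene with peaks in OMM2.3 and none in 92.1.
CYSLTR2, OMM2.3: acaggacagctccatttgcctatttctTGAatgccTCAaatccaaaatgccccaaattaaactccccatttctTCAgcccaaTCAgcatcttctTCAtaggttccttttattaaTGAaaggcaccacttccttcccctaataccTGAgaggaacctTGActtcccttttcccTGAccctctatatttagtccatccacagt
These windows held 12 TCA or TGA trinucleotides at the shared GNAQ site and 9 at CYSLTR2. The median over all peaks was 7 in OMM2.3 and 8 in 92.1, and over the peaks at the 10 genes it was 7 in both lines.

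A3B peaks were found at 5 of the 10 genes in OMM2.3 and at 7 of the 10 in 92.1. The share of all protein-coding genes with a peak by the same rule was 50.5% in OMM2.3 and 73.6% in 92.1, so both counts lay close to the background. GNAQ, GNA11 and PLCB4 had peaks in both lines, 3 of 10 genes, where 43.7% of all protein-coding genes did. CYSLTR2 and PRAME had peaks in OMM2.3 and none in 92.1, and BAP1, SF3B1, EIF1AX and PTP4A3 the reverse. Of all 20033 protein-coding genes, 10110 had a peak in OMM2.3, 14751 in 92.1 and 8763 in both. A peak in a single line was therefore not particular to these genes. SRSF2 had no peak in either line, as was the case for 19.6% of all protein-coding genes.

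Gene length went along with these counts. Of the 4 genes of up to 20 kb (BAP1, EIF1AX, SRSF2 and PRAME), 1 had a peak in OMM2.3 and 2 in 92.1, where 29.6% and 52.9% of all genes of that length did. Of the 4 genes of over 20 to 100 kb (GNA11, SF3B1, CYSLTR2 and PTP4A3), 2 and 3 had a peak, against 58.1% and 84.8%. Both genes of over 100 kb, GNAQ and PLCB4, had peaks in both lines, against 81.5% and 96.6% of long genes. GNAQ and PLCB4 made up 74.4% of the summed length of the 10 extended genes and held 20 of the 24 peaks of OMM2.3 (83.3%) and 35 of the 46 of 92.1 (76.1%). The other 8 genes held 4 and 11 peaks.

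Each count was then set beside the number expected from the gene's own surroundings, which is the peak density in the 1 Mb on each side of the extended gene, without assembly gaps, multiplied by its extended length. Intervals are exact Poisson 95% intervals of the peak count and cover counting error only. Over the 10 genes, OMM2.3 had 24 peaks where 25.3 were expected, a ratio of 0.948 (0.607 to 1.41). In 92.1 there were 46 peaks where 54.3 were expected, a ratio of 0.847 (0.620 to 1.13). Over all protein-coding genes the summed ratio was 0.960 and 1.02. The median ratio of the 10 genes was 0.22 in OMM2.3 and 0.891 in 92.1, beside 0.298 and 0.916 over all genes. The count was above its expectation at 3 of the 10 genes in OMM2.3 and at 4 in 92.1, beside 33.8% and 45.5% of all protein-coding genes. Of the 20 combinations of gene and line, 1 had an interval that left out a ratio of 1: CYSLTR2 in 92.1, with fewer peaks than expected. Over all combinations of protein-coding gene and line with an expectation above 0, 2.85% had an interval that left out 1 and 0.706% one that lay below it. Only combinations with an expectation above 3.69 peaks, the upper bound for a count of 0, could count towards the 0.706%. The share among those combinations alone was not computed.

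**Figure D1:**
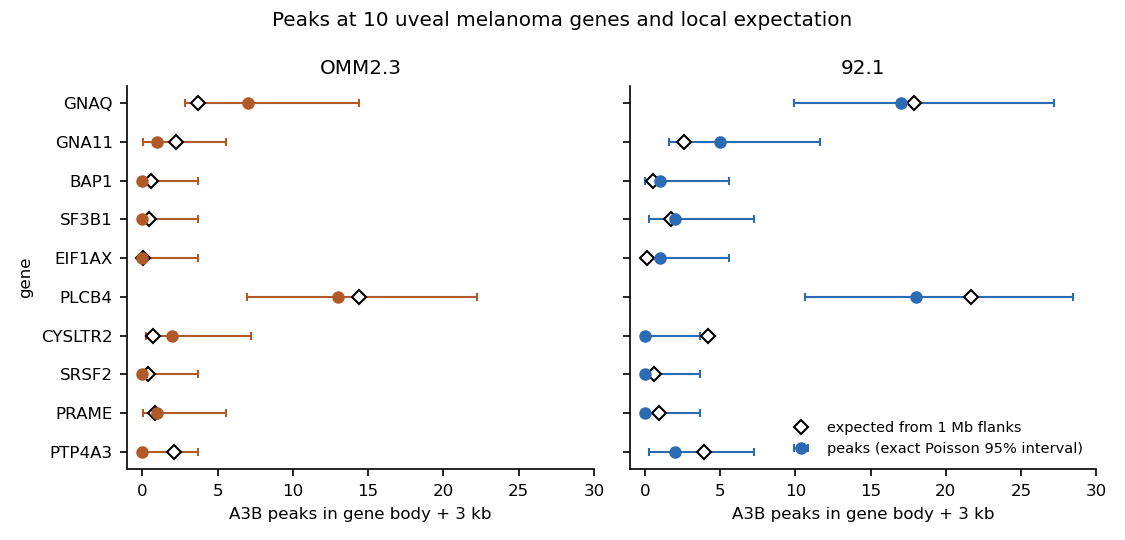
Number of A3B peaks (x axis) at each of the 10 genes (y axis) in OMM2.3 and 92.1, as filled circles with exact Poisson 95% intervals, beside the number expected from the 1 Mb flanks as open diamonds. GNAQ and PLCB4 hold most peaks, with 7 and 13 in OMM2.3 and 17 and 18 in 92.1, and the expectation lies outside the interval only for CYSLTR2 in 92.1.

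CYSLTR2, the receptor at the top of the pathway (ENSG00000152207.8, chromosome 13, 48653711 to 48711226, plus strand, GRCh38), had 2 peaks in OMM2.3 and none in 92.1. Both OMM2.3 peaks lay in intron 1, at 24.8 and 30.7 kb from the canonical transcription start site (TSS). The first had a fold enrichment of 3.02 and a −log10 p of 3.11 on 6 fragments, and the second 2.10 and 1.56 on 4 fragments. Fold enrichment here is the A3B signal at the summit over its local background, with 1 added to each. The signal is the number of A3B fragments covering the summit, scaled by 0.867 in OMM2.3. These fragments were recovered from the fold and the p-value. OMM2.3 was expected to have 0.699 peaks at the gene, which gave a ratio of 2.86 with an interval of 0.347 to 10.3. In 92.1 the flanks were denser, at 66.5 peaks per Mb against 11 in OMM2.3, and 4.22 peaks were expected where none was found. The interval of that ratio ended at 0.873, and at 1.19 when the density of the whole chromosome was used instead. Among peaks with a p of at most 0.001 it ended at 3.42.

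GNAQ, the most often mutated gene of the disease (ENSG00000156052.11, chromosome 9, 77716097 to 78031811, minus strand), had 7 peaks in OMM2.3 and 17 in 92.1. The expectation was 3.70 in OMM2.3, a ratio of 1.89 (0.761 to 3.90), and 17.9 in 92.1, a ratio of 0.952 (0.555 to 1.52). From OMM2.3 to 92.1 all peaks on chromosomes 1 to 22, X and Y rose 2.44 times in number, those in the flanks of GNAQ 4.83 times and those at the gene 2.43 times. In OMM2.3 none of the peaks was near the TSS, and 4 of the 7 lay in intron 5, which is 65.8 kb long. The others lay in introns 1, 2 and 6, with 1 each. In 92.1, 7 peaks lay in intron 1, which is 109 kb long, 6 in intron 5, 2 in intron 2, 1 in intron 6 and 1 on exon 1. Of these, the peak on exon 1 and another in intron 1 lay 0.247 and 1.40 kb past the TSS, and no peak of OMM2.3 was closer than 49.9 kb to it.

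In intron 5 of GNAQ the summits of the 2 overlapping peaks lay 12 bp apart. The OMM2.3 peak, chr9:77790256-77790517, had a fold enrichment of 3.44 and a −log10 p of 3.94 on 7 fragments. The 92.1 peak, chr9:77790321-77790543, had 2.66 and 2.68 on 4 fragments. The GC content around the summits was 33.8% and 34.3%, and none of the 32-mers in these windows occurred elsewhere in the genome. Further along the same intron lay a repeated stretch with 2 peaks of OMM2.3 and 1 of 92.1 whose windows were made of repeated 32-mers only. Their 32-mers had a median of 284 and 1455 copies in the OMM2.3 windows and 22 in the 92.1 window. Reads from such copies cannot be placed with certainty, so these 3 peaks are uncertain as GNAQ peaks. Leaving out peaks with at least 50% repeated 32-mers, in the gene and in its flanks, put the GNAQ ratio in OMM2.3 at 1.83 (0.594 to 4.27). Flanks of 250 kb gave 1.21 (0.486 to 2.49). Among peaks with a p of at most 0.001 it was 4.97 (1.36 to 12.7), from 4 peaks, of which the strongest repeated peak was 1.

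GNA11, the close relative of GNAQ (ENSG00000088256.9, chromosome 19, 3094362 to 3123999, plus strand), had 1 peak in OMM2.3 and 5 in 92.1. In OMM2.3 2.23 were expected, a ratio of 0.449 (0.0114 to 2.50), and in 92.1 2.62, a ratio of 1.91 (0.620 to 4.46). With the gene extended by 10 kb OMM2.3 had 4 peaks and a ratio of 1.32 (0.360 to 3.38), and with a p of at most 0.001 neither line had a peak there. The OMM2.3 peak, on exon 5 and within 1 kb of the start of another transcript of GNA11, had a fold enrichment of 2.59 on 6 fragments, and it also overlapped a lncRNA gene. The 5 peaks of 92.1 ran from a summit at −1.74 kb from the TSS to one in the 3′ UTR, at 29.1 kb, and their fold enrichments from 2.17 to 2.72. All 5 had a −log10 p under 3, and none of them overlapped the OMM2.3 peak, the nearest being 1.62 kb away between summits.

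PLCB4, the phospholipase downstream (ENSG00000101333.19, chromosome 20, 9067825 to 9504593, plus strand), is the longest of the 10 genes and had 13 peaks in OMM2.3 and 18 in 92.1. With 14.4 and 21.7 expected, the ratios were 0.903 (0.481 to 1.55) and 0.830 (0.492 to 1.31). Peaks at the gene were 1.38 times as many in 92.1 as in OMM2.3, those in its flanks 1.51 times and all peaks 2.44 times. Introns 2 and 3, which are 121 and 90.4 kb long, held 9 of the 13 peaks of OMM2.3 and 8 of the 18 of 92.1. The strongest peak of 92.1 lay there, in intron 3, with a fold enrichment of 3.73 and a −log10 p of 4.43 on 6 fragments. The strongest of OMM2.3 lay past the end of the canonical transcript, in an intron of longer ones, 422 kb past the TSS, with a fold of 3.58 and a −log10 p of 3.57 on 8 fragments. No PLCB4 peak of one line overlapped a peak of the other, and the closest pair of summits, 184 kb and 185 kb past the TSS, lay 629 bp apart.

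**Figure D2:**
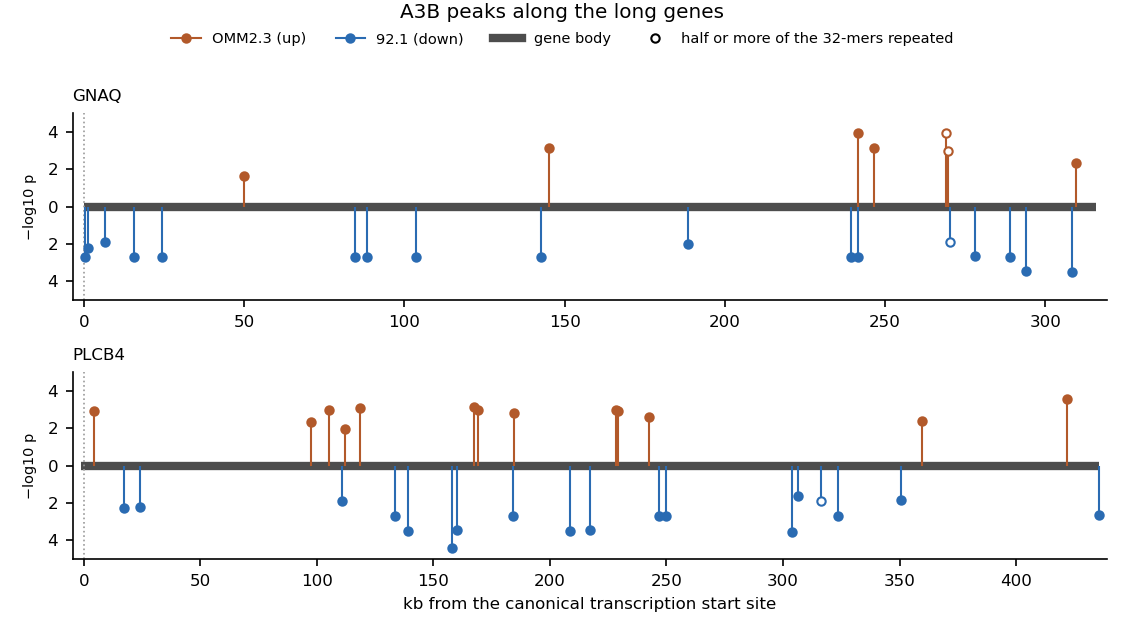
Position of each A3B peak along GNAQ and PLCB4, in kb from the canonical TSS in the direction of transcription (x axis), with its −log10 p (y axis) upward for OMM2.3 and downward for 92.1. Open circles mark summit windows with at least 50% repeated 32-mers, of which GNAQ has 2 in OMM2.3 and 1 in 92.1 and PLCB4 has 1 in 92.1.

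BAP1, the deubiquitinase whose loss marks the tumours of highest risk (ENSG00000163930.10, chromosome 3, 52401008 to 52410008, minus strand), had no peak in its gene body in either line. Its single peak, in 92.1, lay in the 3 kb past its 3′ end and inside the neighbouring gene DNAH1, which encodes an axonemal dynein. It had a fold enrichment of 2.65 on 4 fragments, and 70.6% of the 32-mers in its window were repeated, with a median of 992 copies. The expectation for the extended gene was 0.540 in OMM2.3 and 0.510 in 92.1, so a count of 0 or 1 could hardly differ from it. The ratio for 92.1 was 1.96, with an interval of 0.0496 to 10.9.

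SF3B1, a core subunit of the SF3b complex that recognises the branch point of introns (ENSG00000115524.17, chromosome 2, 197388515 to 197435079, minus strand), had no peak in OMM2.3, where 0.420 were expected. In 92.1 it had 2, where 1.76 were expected, a ratio of 1.14 (0.138 to 4.10). These lay on exon 4, 14.5 kb past the TSS, with a fold of 2.66 on 4 fragments, and in intron 23, 41.1 kb past it, with 2.13 on 3 fragments. SRSF2, a splicing factor that binds exonic enhancers (ENSG00000161547.17, chromosome 17, 76734115 to 76737333, minus strand), had none in either line. It is the shortest of the 10 genes, and 0.383 and 0.636 peaks were expected. The upper bounds of its ratios were 9.64 and 5.80, so the absence of peaks does not exclude an enrichment of several times at this gene.

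EIF1AX (ENSG00000173674.11, chromosome X, 20124525 to 20141838, minus strand) lay in the sparsest surroundings, with 2.50 peaks per Mb in OMM2.3 and 7 in 92.1. It had no peak in OMM2.3 and 1 in 92.1, whose summit lay upstream, at −1.01 kb from the TSS, outside the gene body. The peak had a fold enrichment of 3.73 and a −log10 p of 4.43 on 6 fragments, the same values as the strongest PLCB4 peak, and a q-value of 0.835. With 0.163 peaks expected the ratio was 6.13, and its interval of 0.155 to 34.1 shows how little a single peak fixes. Among peaks with a p of at most 0.001 the interval ran from 1.09 to 239, still on 1 peak.

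PRAME (ENSG00000185686.18, chromosome 22, 22547701 to 22559361, minus strand) had 1 peak in OMM2.3, in intron 3 and 5.80 kb past the canonical TSS, with a fold enrichment of 3.02 and a −log10 p of 3.11 on 6 fragments. In OMM2.3 0.830 were expected, a ratio of 1.21 (0.0305 to 6.71), and in 92.1 none was found where 0.936 were expected. The peaks in the flanks of PRAME had a median local background of 2.0 fragments in OMM2.3, beside 1.13 over all its peaks. PTP4A3 (ENSG00000184489.13, chromosome 8, 141391995 to 141432454, plus strand) had no peak in OMM2.3 where 2.07 were expected, a ratio of at most 1.78. In 92.1 it had 2 where 3.93 were expected, a ratio of 0.509 (0.0617 to 1.84). These lay in intron 1, with a fold of 1.77 on 3 fragments, and in the 3′ UTR, with 2.56 on 4. The flanks of PTP4A3 were the densest of the 10 genes in 92.1, at 84.5 peaks per Mb, with a median local background of 1.62 fragments beside 0.921 over all peaks of that line.

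PRAME and PTP4A3 were the only 2 of the 10 genes that also lie on an alternate haplotype, an extra sequence of the same locus in the reference, and peaks were listed there too. All sampled single-copy 32-mers of PRAME, and 99.3% of those of PTP4A3, were also found on an alternate sequence. PRAME had 1 further peak there in OMM2.3 and none in 92.1. PTP4A3 had 1 in OMM2.3 and 6 in 92.1, against the 0 and 2 on chromosome 8. A read of such sequence matches both copies, so the counts of these 2 genes on the chromosomes are uncertain. With the alternate sequences counted, 6 of the 10 genes had a peak in OMM2.3 and 7 in 92.1. The share of all protein-coding genes by this wider rule was not computed.

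**Figure D3:**
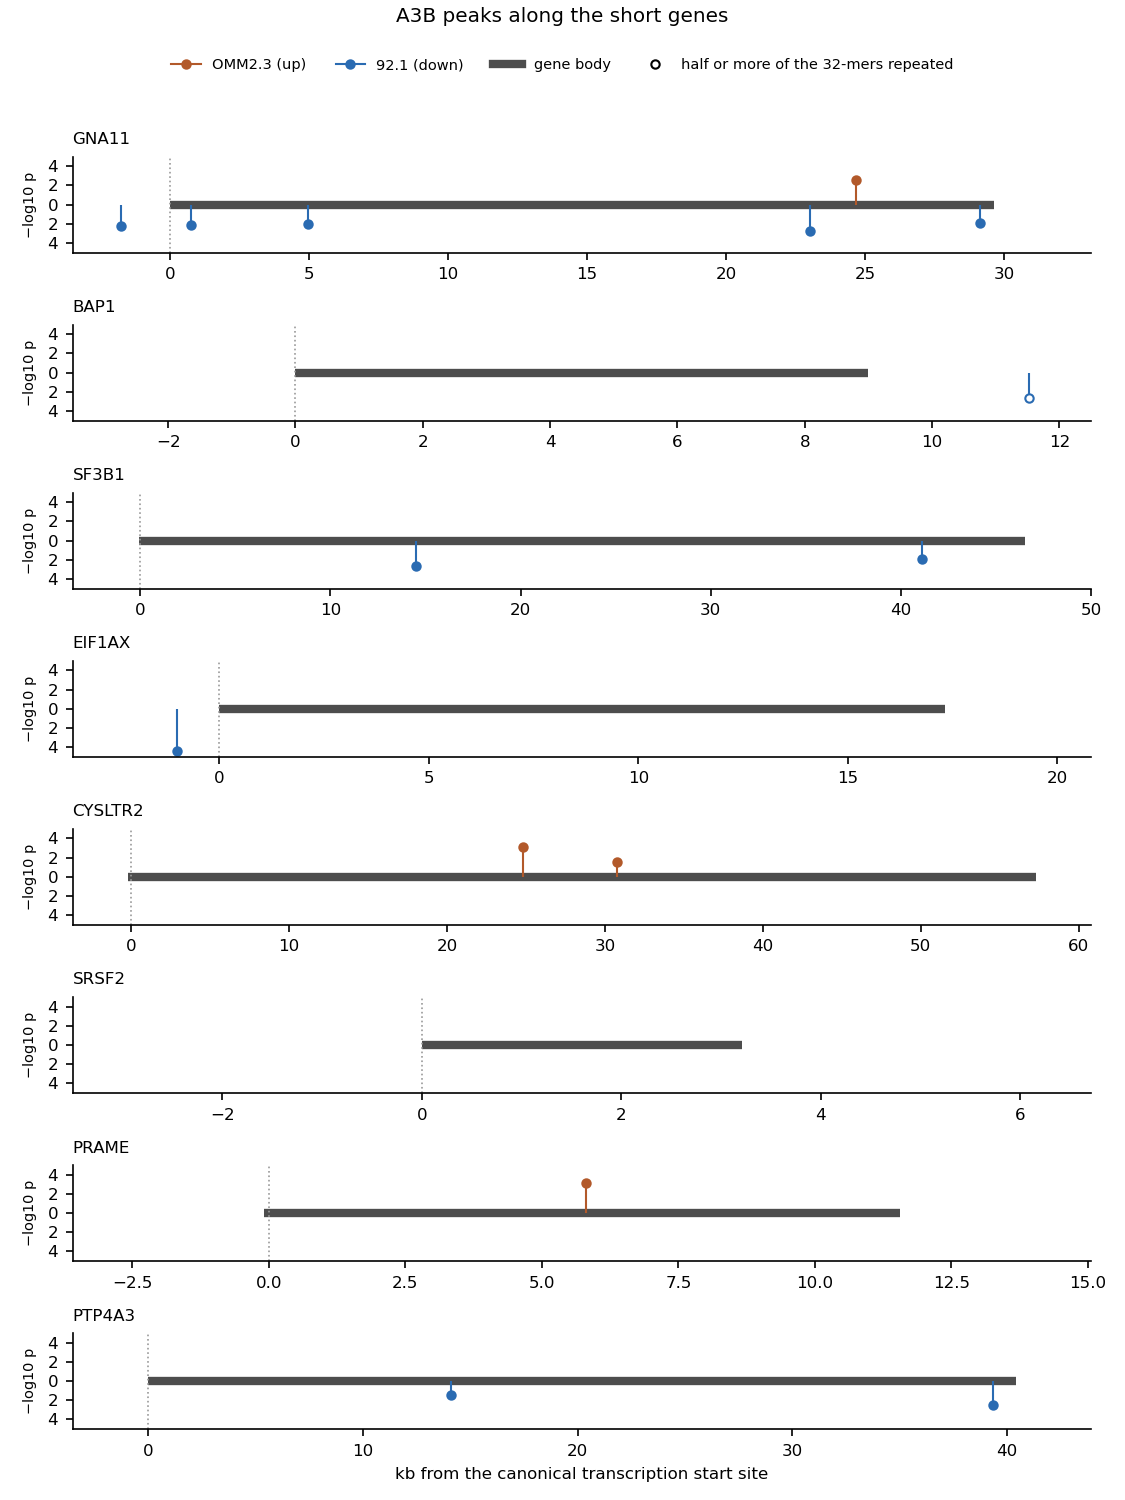
Position of each A3B peak at the other 8 genes, in kb from the canonical TSS in the direction of transcription (x axis, a separate scale for each gene), with its −log10 p (y axis) upward for OMM2.3 and downward for 92.1. GNA11 has 5 peaks in 92.1, SRSF2 has none in either line, and the peaks of BAP1 and EIF1AX lie outside the gene bodies.

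The peaks at the 10 genes were weak in both lines. In OMM2.3 their medians of fold enrichment and −log10 p lay somewhat above those of the whole list, and in 92.1 they equalled them. Their median fold enrichment was 2.92 in OMM2.3 (95% interval of the median 2.65 to 3.02, n = 24 peaks), beside 2.60 over all peaks, and 2.66 in 92.1 (2.40 to 2.66, n = 46 peaks), equal to the median of all. The median −log10 p was 2.96 in OMM2.3 (2.50 to 3.11), beside 2.34 over all peaks, and 2.68 in 92.1, the same as for all peaks. These intervals treat peaks as independent, though 20 of the 24 of OMM2.3 lay at GNAQ and PLCB4. They do not measure a spread over genes or samples. A p of at most 0.001 was reached by 9 of the 24 peaks of OMM2.3 (37.5%, beside 31.1% of all) and by 9 of the 46 of 92.1 (19.6%, beside 27.5%). At that threshold 4 of the 10 genes kept a peak in OMM2.3 and 3 in 92.1, beside 26.7% and 43.7% of all protein-coding genes. No peak at the 10 genes reached a p of 1e-05, which a peak did at 0.205% and 2.48% of all genes, and none reached a q of 0.05, as at 0.0599% and 0.309% of them. The q-value was 1 for all 24 peaks of OMM2.3 and for 95.7% of the 46 of 92.1.

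Few fragments stood behind each peak. At the 10 genes a summit was covered by 4 to 9 A3B fragments in OMM2.3, with a median of 6, and by 3 to 7 in 92.1, with a median of 4, and both medians equalled those of all peaks. In 92.1, 16 of the 46 peaks (34.8%) had exactly the same pair of values, a fold of 2.66 and a −log10 p of 2.68. That pair stands for 4 fragments on the lowest background of 0.877, and 19.4% of all 92.1 peaks had it. Of these 16 peaks 10 were at GNAQ, 5 at PLCB4 and 1 at SF3B1. In OMM2.3 the most frequent pair over all peaks was a fold of 2.60 and a −log10 p of 2.34. It was found at 1 of the 24 peaks (4.17%), beside 14.5% of all peaks. The next most frequent pair was a fold of 3.02 and a −log10 p of 3.11, which is 6 fragments on a background of 1.05. That pair was shared by 5 of the 24 peaks (20.8%), beside 11.2% of all peaks. Peaks with the same values could not be ranked against each other.

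**Figure D4:**
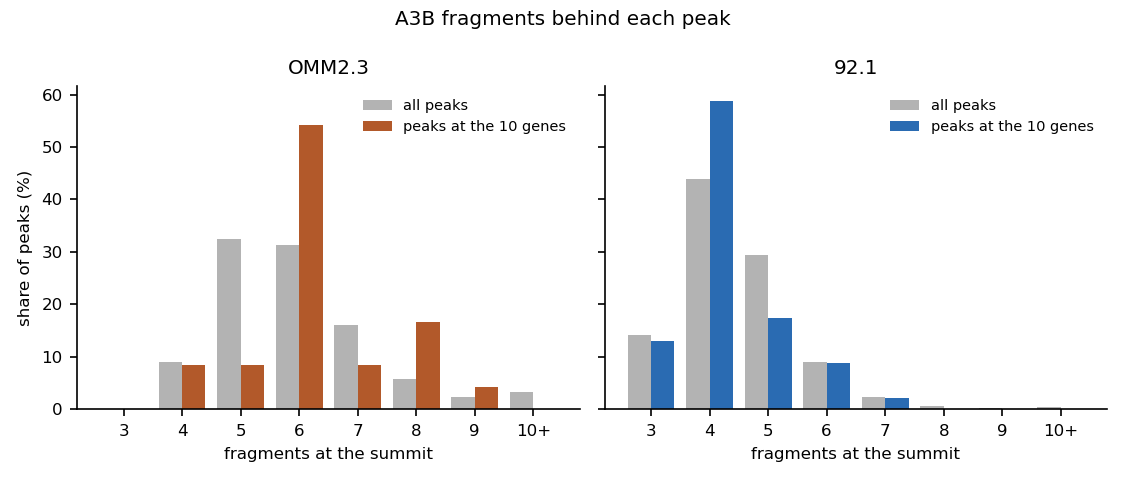
Share of peaks in percent (y axis) by the number of A3B fragments at the summit (x axis, 10 or more together), for all peaks of each line in grey and for the peaks at the 10 genes in colour. Peaks at the 10 genes rest mostly on 6 fragments in OMM2.3 (54.2% of 24) and on 4 in 92.1 (58.7% of 46).

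The rule chose peaks in gene bodies, which are mostly intron in the long genes GNAQ and PLCB4, so the intronic share follows from it. A peak within 3 kb of any TSS of its gene, or on a UTR of any transcript, was not counted as intronic here. Some such peaks lie in introns of the canonical transcript. In OMM2.3, 21 of the 24 lay in introns and 3 within 3 kb of an annotated TSS of the gene (12.5%, exact binomial 95% interval 2.66 to 32.4%). In 92.1, 31 of the 46 lay in introns, 10 within 3 kb of a TSS (21.7%, 10.9 to 36.4%), 4 in a 3′ UTR and 1 in the flank. Shares of all peaks by position are not given here, so these shares have no background beside them. A peak within 3 kb of a TSS was found at 3 of the 10 genes in OMM2.3 and at 5 in 92.1, beside 26.9% and 51.0% of all protein-coding genes. The median GC content of the summit windows was 42.8% in OMM2.3 (all peaks 45.8%) and 42.5% in 92.1 (all peaks 41.3%). Windows with at least 50% repeated 32-mers were 8.33% of those at the 10 genes in OMM2.3, beside 22.9% of all, and 6.52% in 92.1, beside 14.8%.

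Almost none of the peaks recurred between the lines. The GNAQ pair was 1 of 24 peaks in OMM2.3 (4.17%, 0.105 to 21.1%) and 1 of 46 in 92.1 (2.17%, 0.0550 to 11.5%). Over the whole lists 3.62% of the OMM2.3 peaks and 1.48% of the 92.1 peaks overlapped a peak of the other line. When summits within 1 kb were counted in place of overlaps, 3 peaks of each line qualified, 12.5% and 6.52%, beside 10.9% and 4.55% of all peaks.

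The 5 lists of related genes, put together for their roles, were described in the same way. In the Gq signalling list, which holds the other phospholipases C beta, protein kinases C and their effectors, 17 of 24 genes had a peak in OMM2.3 (70.8%, beside 50.5% of all protein-coding genes) and 22 in 92.1 (91.7%, beside 73.6%). Many of its genes are over 100 kb long, and of all protein-coding genes of that length 81.5% and 96.6% had a peak. The ratios of the list to the local expectation, which takes gene length into account, were 1.13 (0.959 to 1.32) and 1.15 (1.03 to 1.28). In OMM2.3 the most peaks were at PLCB1, the neighbour of PLCB4, with 29 where 28.7 were expected, and its −log10 p of 4.80 was the highest of the list. In 92.1 PTK2, the focal adhesion kinase, had 52 where 25.2 were expected. Without PTK2 the ratio of the list in 92.1 was 1.06 (0.938 to 1.19). The highest −log10 p in 92.1, 5.40, was shared by PLCB1, GNA14 and PRKCB.

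Of the 15 BAP1 partners, which include the ASXL proteins that activate BAP1, 9 had a peak in OMM2.3 (60%) and 10 in 92.1 (66.7%). Over all protein-coding genes the shares were 50.5% and 73.6%. The ratios of these partners were 0.924 (0.671 to 1.24) and 0.891 (0.693 to 1.13). ASXL1 had the most in OMM2.3, with 10 where 3.87 were expected, and ASXL2 the highest −log10 p, 4.51. In 92.1 KDM1B and MBD5 had 15 each, and FOXK1 the highest −log10 p, 5.31. Of 26 splicing genes 11 and 18 had a peak (42.3% and 69.2%), with ratios of 0.927 (0.587 to 1.39) and 1.08 (0.801 to 1.43). In OMM2.3 SF3B2, SRSF3, SRSF5, DDX42 and SUGP1 had the most, 3 peaks each, and SF3B2 and SRSF5 shared the highest −log10 p, 3.94. In 92.1 DDX46 had 8 peaks and SF3B6 the highest −log10 p, 4.74. Of 14 translation start genes 5 and 10 had a peak (35.7% and 71.4%), with ratios of 0.543 (0.218 to 1.12) and 1.15 (0.744 to 1.70). Leaving out EIF2S1 in OMM2.3 gave 0.413 (0.134 to 0.964). EIF2S1 tied there with EIF3B for the most peaks, and the ratio without EIF3B was not computed. EIF3B and EIF2S1 had 2 peaks each in OMM2.3, where EIF3B held the highest −log10 p, 3.52, and EIF3B and EIF3C had 4 each in 92.1, where EIF3C and EIF4E shared the highest, 4.43.

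Of the 12 genes of the prognostic expression classifier, which sorts tumours by metastatic risk, 7 and 9 had a peak (58.3% and 75%). Over all protein-coding genes the shares were 50.5% and 73.6%. The ratios of the classifier genes were 0.70 (0.473 to 0.9997) in OMM2.3, an interval that ended just below 1, and 1.04 (0.816 to 1.30) in 92.1. ROBO1, an axon guidance receptor of over 1 Mb, had the most in OMM2.3, with 16 where 26.5 were expected, and without it the ratio was 0.856 (0.468 to 1.44). HTR2B and RAB31 shared the highest −log10 p in OMM2.3, 3.94. MTUS1 had the most in 92.1, with 20 where 18.0 were expected, and ID2, SATB1 and FXR1 shared the highest −log10 p, 4.43. The 10 driver and risk genes, like the splicing, translation start and BAP1 partner lists, had intervals that held 1 in both lines.

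**Figure D5:**
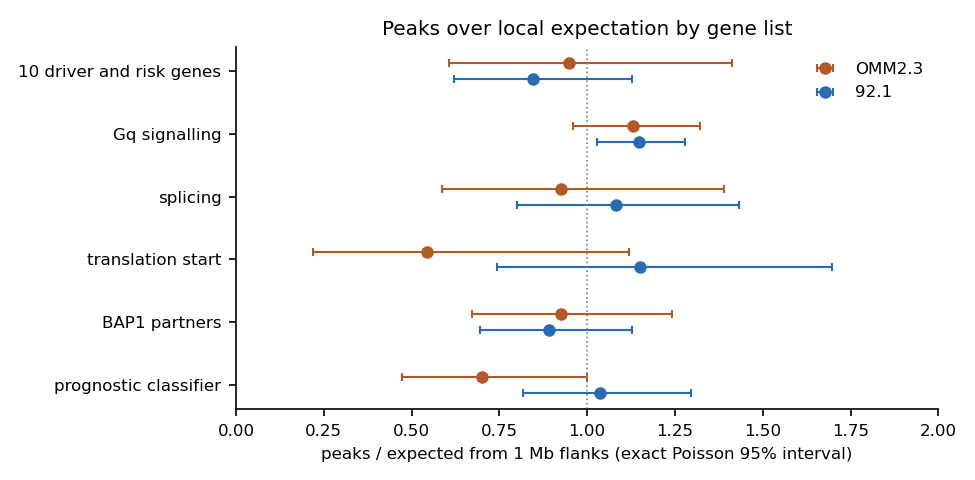
Summed peaks over the number expected from the 1 Mb flanks (x axis) for the 10 driver and risk genes and 5 related lists (y axis), with exact Poisson 95% intervals, in OMM2.3 and 92.1. The ratio of the 10 genes is 0.948 in OMM2.3 and 0.847 in 92.1, and the dotted line marks 1.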

How the data were processed

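A3B ChIP-seq was run once in each line. Per the labels and the study's methods, the authors checked reads with FastQC 0.11.9, aligned them with Bowtie2 2.2.5, removed PCR duplicates with Sambamba and called A3B peaks against IgG with MACS2 2.2.7.1. The alignment filters that decide where repeated reads were placed were not examined here. The deposited lists give for each peak a score, a fold enrichment, a −log10 p-value and a −log10 q-value, and no p in them exceeded 0.05. Read depth is not given in them. Peaks on chromosomes 1 to 22, X and Y were joined to GENCODE 44 (GRCh38) with Python 3.11.15, pandas 2.3.3 and scipy 1.17.1, and the functions were tested on simulated data. Whole fragments were recovered for 99.96% of OMM2.3 and 99.99% of 92.1 peaks (tolerance 0.002 in −log10 p), with the A3B signal scaled by 0.867 and 1.0. Repeats were counted as 32-mers, every 10 bp. Intervals cover counting error only.

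The members and lists were chosen with earlier results of these data known. Named were the 10 genes, a neighbour holding a peak of theirs, and from each related list, per line, the gene with the most peaks and that with the highest −log10 p, ties included. No test was run, as each group held 1 library. The sequences of some summit windows are not reported here.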

Additional observations from a re-analysis of the deposited data

Results flagged for a closer look

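PTP4A3 had 6 peaks of 92.1 on its alternate haplotype sequence, outside the chromosomes the counts above use. They lay in 51.9 kb, a density of 116 per Mb, where the gene had 2 peaks on chromosome 8 and its flanks there 84.5 per Mb. Each rested on 3 to 5 fragments with a q-value of 1 and a fold enrichment of 2.13 to 2.66. OMM2.3 had 1 peak on the same sequence. The expectation on the alternate sequence and the part of read placement in these counts were not tested.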

How the results depend on the processing

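The stricter thresholds moved the most values. With peaks of q of at most 0.05, and likewise of p of at most 1e-05, 0 of the 10 genes had a peak in either line. With p of at most 0.001, 3 of the 10 genes had a peak in 92.1, where 43.7% of all protein-coding genes did. The ratio to the local expectation in 92.1 was then 0.576 (0.263 to 1.09). The share of peaks found in the other line was 0 (upper bound 33.6%) in both lines. At the same threshold 6 of the 26 splicing genes had a peak in OMM2.3, beside 26.7% of all protein-coding genes. Of the 14 translation start genes 3 had a peak in OMM2.3 and 6 in 92.1, beside 26.7% and 43.7%. Within 3 kb of a TSS, 3 of the 10 genes had a peak in OMM2.3, beside 26.9% of all protein-coding genes. The cause of these changes beyond the smaller number of peaks or bases was not tested. The other 82 of 94 alternatives to 32 summary values left them within their interval or within 1.5 times. For single genes 234 of 260 did so, but many of these set 0 peaks against 0, which counts as unchanged. Leaving out each gene in turn gave ratios of 0.787 to 1.03 in OMM2.3 and 0.793 to 0.918 in 92.1. The OMM2.3 ratio, 0.948 with all genes, passed to the other side of 1 with no extension (1.02), with p of at most 0.001 (1.25), without PLCB4 (1.01) and without PTP4A3 (1.03), each with an interval that held 1. Ratios of single genes that crossed 1 in the same way were in OMM2.3 those of GNA11 (1.32), SF3B1 (2.0) and PRAME (0.672) with a 10 kb extension and PLCB4 (1.05) with flanks of 250 kb. In 92.1 they were GNAQ with flanks of 5 Mb (1.11), the whole chromosome (1.14) and the repeat filter (1.015), and GNA11, BAP1, SF3B1 and EIF1AX, which had 0 peaks under a stricter p, no extension or the repeat filter. The repeat filter on gene ratios, the alternate sequences and the lists without their gene with the most peaks were added after seeing the data. No paired analysis was possible because a line had a single A3B library and no values came from a test.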
